A study of Rattus norvegicus with 6 samples.

Results

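Freshly isolated rat hepatocytes (Rattus norvegicus) after ischemia reperfusion (IR) were set beside hepatocytes of healthy animals, as 2 of the 6 libraries of the series. The control animals were healthy and untreated. The IR animals had the portal vein clamped for a time and then reopened, received no drug, and were sampled 1 day later. A further hepatocyte library came from animals with the same IR that also received etanercept (9 mg/kg, 18 to 16 h before) and nitroglycerin (6 µg/kg/min, by infusion before and during IR), called treated IR below. The same 3 conditions were sequenced from whole liver of other animals. Each library is 1 pool of RNA from 3 animals, so no comparison has a replicate, no p-value was computed, and "higher" and "lower" describe libraries. The labels name no sham operation, strain, sex or age, so IR cannot be told apart from surgery. Of 26689 gene IDs in the files, 7050 had 50 or more reads over the 2 hepatocyte libraries, and these were compared. They held 99.1% of the reads of the library labelled control.

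Hepatocytes are the main secretory and metabolic cells of the liver. They make albumin, clotting factors and most other plasma proteins, and they carry out the urea cycle, bile acid synthesis and drug oxidation. After injury or inflammation they are known to shift toward acute phase proteins, a response driven largely by cytokines of the interleukin-6 and interleukin-1 families. Genes carry Ensembl IDs in the files, and 0 of the 26689 IDs matched a symbol in the reference table. Genes are therefore described by their levels in the 6 libraries, with 4 IDs printed, and hepatocyte markers were not checked by name. No promoter was printed, for the same reason.

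Reads counted in genes numbered 3448652 in the library labelled control, 5335184 in the library labelled IR and 2716994 in treated IR hepatocytes, and from 1945331 to 7160610 in the liver libraries. Levels are CPM, reads per 1000000 of the TMM-scaled library size. A count of 0 was taken to allow up to 3 reads, which equal 0.931 CPM in the library labelled control and 0.580 CPM in the library labelled IR. Intervals are 95% Clopper-Pearson intervals unless another is named. They cover the counting error of reads alone and say nothing of variation between animals or pools. No molecular identifiers were used, so the intervals may be too narrow for counts of molecules.

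Summed over the genes with the largest IR differences in whole liver, levels ran against the labels of these 2 hepatocyte libraries. The 8-fold cut used here was chosen with earlier results of these data known, so it is no independent check. In liver, 38 of 9932 expressed genes (0.383%) were at least 8-fold higher in IR than in control. Their summed level in liver was 1394 CPM (control), 22084 CPM (IR) and 14467 CPM (treated IR). The same 38 genes summed to 20109 CPM in the hepatocyte library labelled control, 2281 in that labelled IR and 39686 in treated IR hepatocytes. The hepatocyte level was thus 8.82-fold lower in the library labelled IR (counting interval 8.64 to 8.99). By the rule of size given below, 10 of the 38 (26.3%) were singly lower in the library labelled IR and 2 (5.26%) higher, beside 6.93% and 9.53% of all 9932 genes, and 24 had fewer than 50 reads. Without the 3 most abundant of these genes, the hepatocyte sums were 1134, 482 and 2626 CPM in the same order. The liver sums of the remaining genes were 92.1 CPM (control), 1227 CPM (IR) and 870 CPM (treated IR). The wider class of 373 genes at least 2-fold higher in liver IR had a median hepatocyte log2 ratio of -0.019. In that class 178 genes were above 0 and 189 below.

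The reverse held for the 10 genes (0.101%) at least 8-fold lower in liver IR. Their liver sums were 1344 CPM (control), 81.2 CPM (IR) and 80.4 CPM (treated IR). Their hepatocyte sums were 118 CPM in the library labelled control, 1089 in that labelled IR and 140 in treated IR. Singly, 5 of the 10 (50%) were higher in the library labelled IR and 1 (10%) lower. Over all 9932 genes the shares were 9.53% and 6.93%, and 7 of the 10 had fewer than 50 reads. ENSRNOG00000013552, described below, held most of these sums, and without it the hepatocyte values were 52.8, 154 and 32.5 CPM. Without it the liver values were 179 CPM (control), 16.2 CPM (IR) and 21.2 CPM (treated IR). For both sets, with or without their most abundant genes, liver control and the hepatocyte library labelled IR lay on one side and the other 4 libraries on the other. The sides of liver control and liver IR were fixed by the choice of the sets, so only the remaining libraries were free to vary. Whether the labels of the 2 hepatocyte libraries are as stated was not tested. They are called the library labelled control and the library labelled IR throughout, and every result below rests on both, so none can be given without either.

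**Figure D1:**
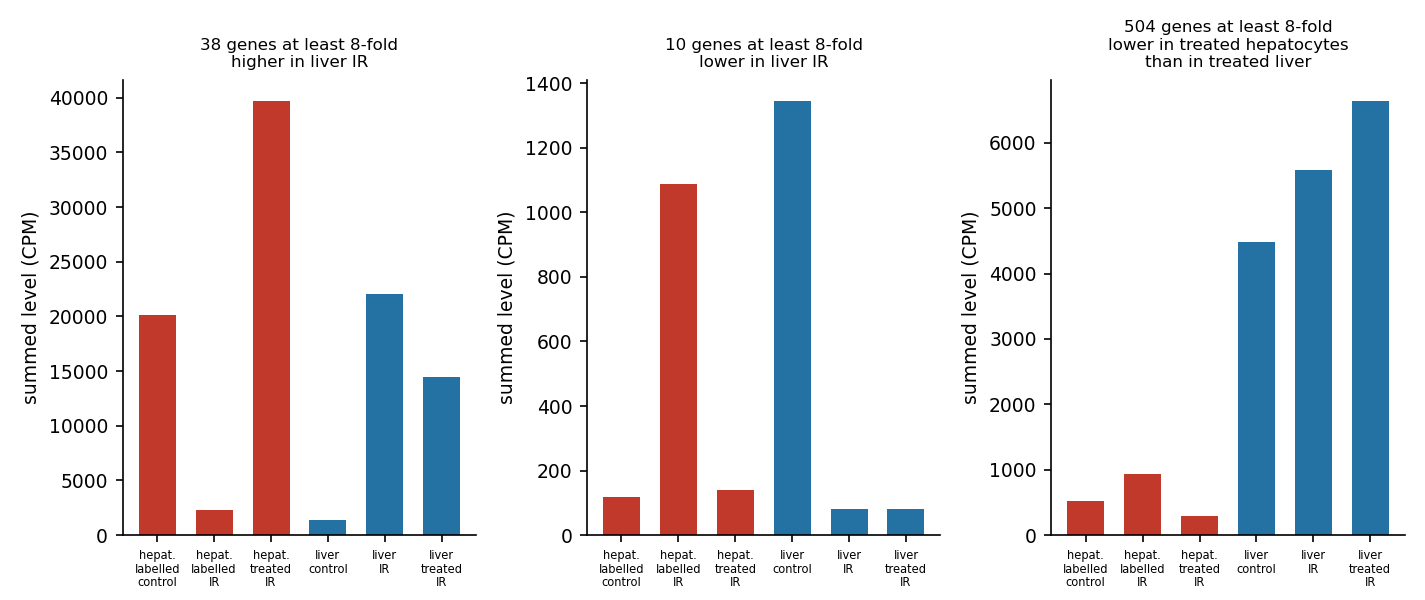
Summed level (CPM, linear axis from 0) in each of the 6 libraries, by label, for the 38 genes at least 8-fold higher in liver IR than in liver control, the 10 at least 8-fold lower, and the 504 at least 8-fold lower in treated hepatocytes than in treated liver. Bars are single libraries, red for hepatocytes (hepat.) and blue for liver. The library labelled IR is low in the first panel (2281 CPM) and high in the second (1089 CPM).

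Between the library labelled IR and that labelled control, 1117 of 7050 genes were apart, which is 15.8%. A gene was counted as apart when its ratio was at least 2-fold and its counting interval excluded 1. Of these, 676 genes (9.59%) were higher in the library labelled IR and 441 (6.26%) lower. Of the genes apart, 60.5% were higher at 2-fold and 58.9% at 4-fold, while at 8-fold more genes were lower than higher. At least 4-fold apart were 73 genes higher (1.04%) and 51 lower (0.723%), and at least 8-fold 12 higher (0.170%) and 17 lower (0.241%). When the interval's bound nearer to 1 also had to pass 2-fold, 197 genes were higher (2.79%) and 171 lower (2.43%). This last rule was chosen after seeing the data.

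Most genes differed little. The median log2 ratio was 0.011, with quartiles of -0.40 and 0.49, and 4411 genes (62.6%) lay within 1.5-fold of equality. The extremes were -7.68 and 5.05. No gene with 50 or more reads in 1 of the libraries had 0 reads in the other (0 in either direction). With 50 to 99 reads over both libraries (1908 genes), the upper bound of the interval was a median of 2.88 times the lower. With 1000 or more reads (840 genes) it was 1.20 times.

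**Figure D2:**
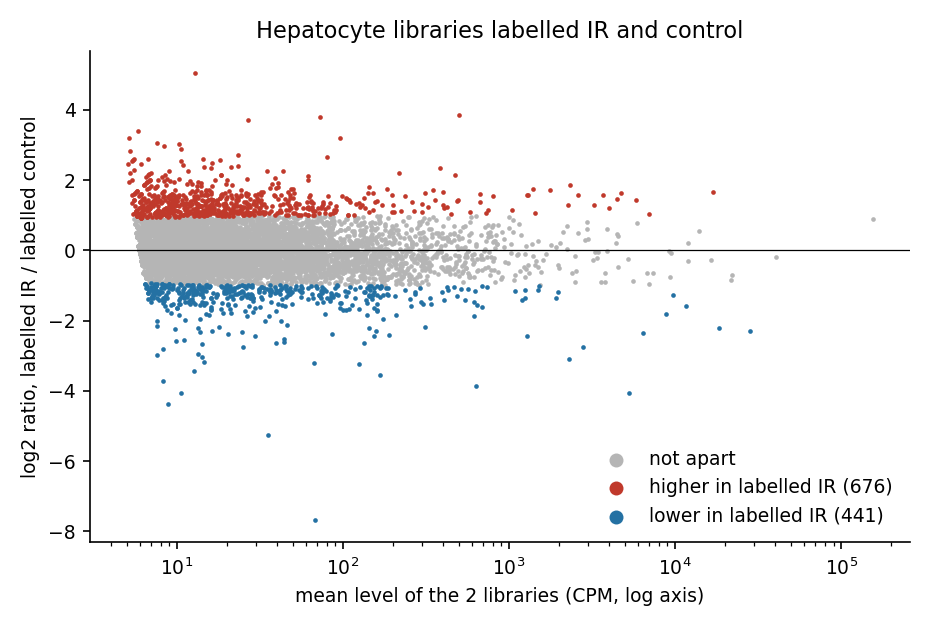
Log2 ratio of the hepatocyte library labelled IR to that labelled control (prior count 2) against the mean level of the 2 libraries (CPM, log axis), 1 point for each of 7050 genes. Red points are the 676 genes higher and blue points the 441 genes lower by the rule of size. The lower genes reach higher levels than the higher genes.

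The 4 printed genes had, in each direction, the ratio intervals farthest from equality. ENSRNOG00000028896 was at 137 CPM in the library labelled control (440 reads), 0.193 in that labelled IR (1 read) and 429 in treated IR hepatocytes (923 reads). In liver it had 0 reads in control, which allows up to 1.31 CPM, and stood at 120 CPM in IR and 129 in treated IR. It thus had at most 1 read in 2 libraries of the 6, liver control and the hepatocyte library labelled IR. The library labelled control was 706-fold above that labelled IR, with a wide counting interval of 126 to 27960 because of the single read. Liver IR was 91.7-fold above the limit of 3 reads in liver control, a value that leaves out counting error. The counting interval of the liver ratio from the observed 0 reads had a lower bound of 74.4.

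ENSRNOG00000025001 was likewise lowest in liver control and in the hepatocyte library labelled IR. It was at 69.8 CPM in the library labelled control (225 reads), 1.35 in that labelled IR (7 reads) and 141 in treated IR hepatocytes (304 reads). Liver levels were 10.04 CPM (control), 75.3 CPM (IR) and 66.1 CPM (treated IR). The hepatocyte difference was 51.6-fold (24.6 to 130). In liver the gene was 7.50-fold higher in IR than in control (4.94 to 11.9), the opposite direction.

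ENSRNOG00000013552 was the more abundant of the 2 printed genes that were higher in the library labelled IR. It stood at 64.9 CPM in the library labelled control (209 reads), 935 in that labelled IR (4837 reads) and 108 in treated IR hepatocytes (232 reads). Its liver levels were 1165 CPM for control, 65.1 for IR and 59.1 for treated IR. Liver control and the hepatocyte library labelled IR were thus the high libraries, and the other 4 lay between 59.1 and 108 CPM. The ratio was 14.4-fold in hepatocytes (12.6 to 16.6), and in liver control was 17.9-fold above IR (16.2 to 19.9).

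ENSRNOG00000017727 was high in the library labelled IR alone among the 6 libraries. It was at 0.310 CPM in the library labelled control (1 read), 25.5 in that labelled IR (132 reads) and 2.79 in treated IR hepatocytes (6 reads). Liver levels were 2.62 CPM (control), 1.19 CPM (IR) and 0.667 CPM (treated IR), from 5 to 8 reads. The hepatocyte ratio was 82.2 with an interval of 14.5 to 3272. The liver ratio of IR to control, 0.453 (0.138 to 1.58), could not be told from equality at this depth.

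**Figure D3:**
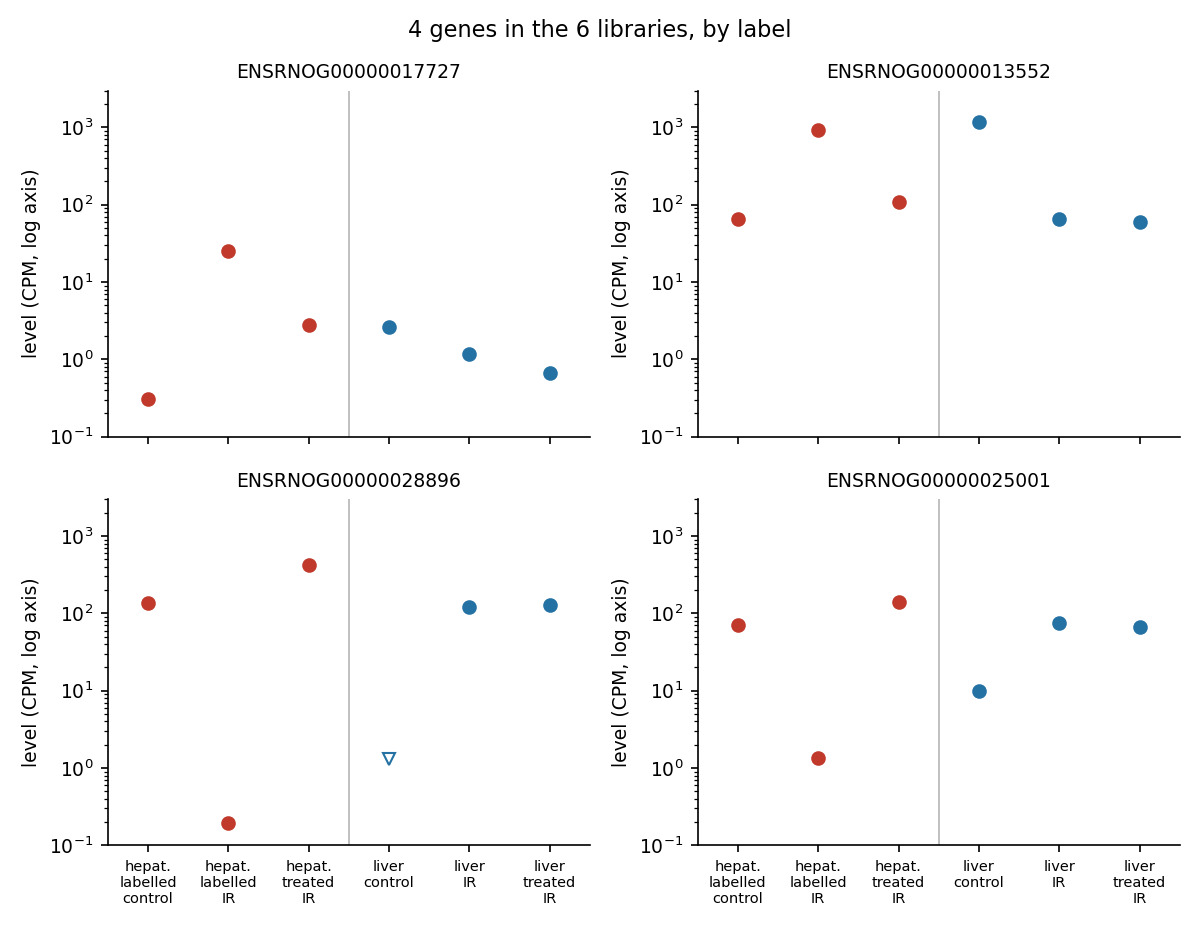
Level (CPM, log axis) of the 4 printed genes in the 6 libraries, 1 point for each library, named by its label. Red points are hepatocytes (hepat.), blue points liver, and the open triangle is the 1.31 CPM limit for 0 reads in liver control. ENSRNOG00000028896 and ENSRNOG00000025001 are low in liver control and in the hepatocyte library labelled IR, where ENSRNOG00000013552 is high.

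In the wider ranking, most of the lower genes were apart in liver in the opposite direction, but few of the higher ones were. The 12 genes whose intervals lay farthest below equality were 8.52-fold to 706-fold lower in the library labelled IR. Their median levels were 129 CPM in the library labelled control, 7.25 in that labelled IR and 157 in treated IR hepatocytes. In liver their medians were 17.5 CPM (control), 89.7 CPM (IR) and 62.9 CPM (treated IR), and 10 of the 12 were apart and higher in liver IR, 0 lower. The 12 genes farthest above equality were 5.14-fold to 82.2-fold higher, with medians of 4.66 CPM in the library labelled control, 45.6 in that labelled IR and 8.59 in treated IR hepatocytes. Of these 12, 3 were apart and lower in liver IR and 1 higher, and the others were not apart in liver. Their liver medians were 20.5 CPM (control), 13.4 CPM (IR) and 10.4 CPM (treated IR).

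Among the genes compared, those lower in the library labelled IR were the more abundant in treated IR hepatocytes, at a median of 41.8 CPM against 10.7 for the higher genes. The minimum for comparison was set on reads summed over both compared libraries. Genes higher in the library labelled IR, the deeper one, could thus pass it at lower levels than the lower genes. The part this plays in the medians of this paragraph was not tested. The 441 lower genes took 20.0% of reads in the library labelled control and 5.75% in that labelled IR, which is the difference that chose them. They took 21.9% of reads in treated IR hepatocytes, which played no part in that choice. Their liver shares were 7.91% for control, 17.2% for IR and 17.2% for treated IR. The 676 higher genes took 4.66% in the library labelled control, 13.2% in that labelled IR and 8.47% in treated IR hepatocytes. In liver these genes took 7.75%, 6.01% and 6.64%, in the same order of conditions. The median level of the higher genes was 8.38 CPM in the library labelled control and 22.1 in that labelled IR, against 37.9 and 14.1 CPM for the lower genes.

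A few very abundant genes carried most of this difference in the lower genes. The 10 most abundant of the lower genes took 14.5% of reads in the library labelled control, 3.56% in that labelled IR and 16.0% in treated IR hepatocytes. They were 2.29-fold to 16.7-fold lower in the library labelled IR, and 8 of the 10 were apart and higher in liver IR. The 3 most abundant of the genes at least 8-fold higher in liver IR lay between 4125 and 10006 CPM in the library labelled control, between 484 and 715 in that labelled IR and between 10969 and 14851 in treated IR hepatocytes. Their liver levels ran from 412 to 465 CPM for control, from 3705 to 9382 for IR and from 2490 to 7062 for treated IR. The 10 most abundant of the higher genes took 2.71% of reads in the library labelled control and 7.81% in that labelled IR, and were 2.03-fold to 3.599-fold higher. None of these 10 was apart in liver IR vs control (0 higher, 0 lower).

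The liver pair shares no library with the hepatocyte pair, and the genes apart in hepatocytes were read there. Over the same 7050 genes, 2.78% were apart and higher in liver IR and 1.67% lower. Of the 51 genes at least 4-fold lower in the library labelled IR, 29 (56.9%) were apart and higher in liver IR and 0 lower, with a median liver log2 ratio of 1.14 beside 0.030 over all genes compared. Of the 17 at least 8-fold lower, 11 were higher in liver IR and 0 lower, with a median of 1.48. The genes at least 4-fold higher in the library labelled IR, 73 in number, included 9 (12.3%) lower and 4 (5.48%) higher in liver IR, with a median of -0.068. Of the 12 at least 8-fold higher, 4 were lower and 1 was higher, with a median of -0.77.

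At the 2-fold rule the picture was weaker. Of all 441 lower genes, 58 (13.2%) were higher and 3 (0.680%) lower in liver IR, with a median liver log2 ratio of 0.19. Of all 676 higher genes, 28 (4.14%) were lower and 24 (3.55%) higher, and their median was 0.060, on the other side of 0 from the larger of these counts. Most genes apart in hepatocytes were thus not apart in liver. Liver control was the shallowest library, with 1945331 reads, and the liver call set no minimum of reads. A gene not apart in liver may therefore still differ there. Liver treated IR vs control shares the liver control library with liver IR vs control. It set 2.7% of the 7050 genes higher and 2.26% lower. There 25 of the 51 genes at least 4-fold lower in hepatocytes were higher and 1 lower, and 13 of the 73 at least 4-fold higher were lower and 2 higher.

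**Figure D4:**
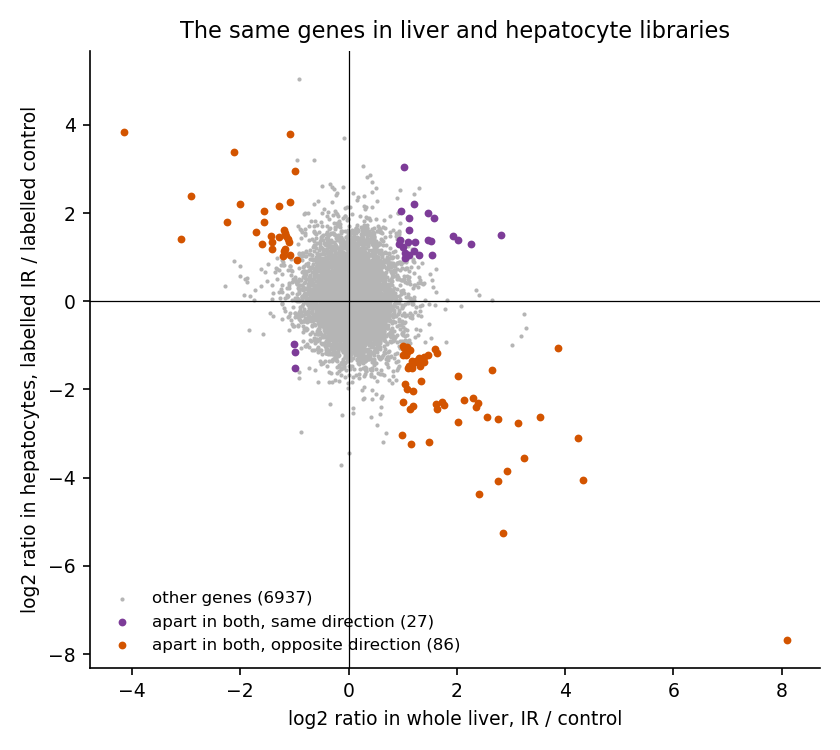
Log2 ratio of IR to control in whole liver (horizontal) and of the library labelled IR to that labelled control in hepatocytes (vertical) for the 7050 genes compared. Orange points are the genes apart in both in opposite directions (58 and 28), and purple points those apart in both in the same direction (24 and 3). The lower right quadrant holds the largest differences.

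Read the other way, the genes apart in liver were followed into hepatocytes, with all members counted. Of 373 genes higher in liver IR (3.76% of 9932), 196 had 50 or more reads over the 2 hepatocyte libraries. Over all 373, 74 (19.8%) were apart and lower in the library labelled IR and 45 (12.1%) higher, beside 6.93% and 9.53% over all 9932 expressed genes. Of the 99 (0.997%) at least 4-fold higher in liver IR, 27 were lower and 11 higher, and their summed hepatocyte level was 5.10-fold lower in the library labelled IR (5.06 to 5.13). Of 221 genes (2.23%) lower in liver IR, 38 (17.2%) were higher and 12 (5.43%) lower in the library labelled IR. Of the 30 (0.302%) at least 4-fold lower in liver IR, 9 were higher and 1 lower, and their summed level was 2.89-fold higher (2.76 to 3.02). ENSRNOG00000013552 carried much of that sum, which without it went from 665 CPM in the library labelled control to 1172 in that labelled IR. Many members were too low in hepatocytes to be read singly: the 99 genes had a median of 2.79 CPM in the library labelled control, and 65 of them fell below 50 reads.

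Genes of liver that the treated hepatocyte preparation held little of had a higher summed level in the library labelled IR. These were 504 of 9932 genes (5.07%), at least 8-fold lower in treated IR hepatocytes than in treated IR liver, a choice that used neither library of the pair. They summed to 519 CPM in the library labelled control, 931 in that labelled IR and 291 in treated IR hepatocytes, against 4478, 5583 and 6634 CPM in liver control, IR and treated IR. The sum was 1.79-fold higher in the library labelled IR (1.70 to 1.90). Of the 504, 51 (10.1%) were apart and higher and 6 (1.19%) lower, beside 9.53% and 6.93% of all 9932 genes. The share higher was thus near that of all genes, and 481 of the 504 were below 50 reads. In a pool, fewer cells of a type and less RNA per cell cannot be told apart, and the part that other cell types play in the results was not tested. Genes at least 8-fold higher in treated hepatocytes than in treated liver numbered 20 (0.201%) and summed to 960 CPM in the library labelled control, 1237 in that labelled IR and 1411 in treated IR hepatocytes. Their members did not follow that sum: 7 of the 20 (35.0%) were apart and lower in the library labelled IR and 2 higher, and the median log2 ratio over all 20 was -0.61. Without the 3 most abundant, the sum was 266 CPM in the library labelled control and 195 in that labelled IR.

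The direction of the difference varied with abundance. The 7050 genes were put in 5 equal classes by their level in treated IR hepatocytes. In the highest class, from 70.1 CPM, 62 of 1410 genes were higher in the library labelled IR (4.40%) and 163 lower (11.6%), with a median log2 ratio of -0.26. In the middle class the counts were 102 higher and 78 lower, with a median of 0.017. In the lowest class, up to 8.82 CPM, 291 were higher and 34 lower, with a median of 0.36. The minimum of 50 reads was set on the compared libraries, of which the library labelled IR was the deeper one. The part this plays in the counts of the lowest class was not tested.

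Both libraries had the same leading gene by read count. It took 10.2% of reads in the library labelled control (95% Wilson interval 10.1 to 10.2) and 19.4% in that labelled IR (19.4 to 19.4), and was 1.84-fold higher after scaling (1.84 to 1.85). In liver its ratio of IR to control was 1.16 after scaling (1.15 to 1.16). Its share of liver reads was 14.9% in control and 13.8% in IR, so the direction in liver depended on the scaling. The 10 most abundant genes of each library took 32.5% in the library labelled control and 35.0% in that labelled IR, and the 100 most abundant took 62.0% in each. Without the most abundant gene, 54 genes made up 50% of the reads in the library labelled control and 79 in that labelled IR. Reduced to 2716994 reads, 11672 gene IDs would be detected on average in the library labelled control, 11876 in that labelled IR and 11541 in treated IR hepatocytes.

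Treated IR hepatocytes share a library with the pair in either comparison, so the 3 counts are given side by side only. By the same rule, treated IR differed from the library labelled control in 428 of 5723 genes (7.48%) and from the library labelled IR in 1676 of 6749 (24.8%), where the pair itself differed in 15.8%. The genes compared and the depth differ between these comparisons, and the rule depends on depth. The shares are therefore not like measures of distance between libraries.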

How the data were processed

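Raw read counts per Ensembl gene ID were deposited by the authors, in a file for each library that ends with summary lines. The submitters' processing notes name TopHat2 (2.0.13) and HTSeq (0.6.1). The build, the annotation and whether counting used strand were not given in the sources used here. Overlapping, antisense and near-identical genes may share or lose reads. Summary lines were left out. In the libraries labelled control and IR, reads outside genes were 6.23% and 8.34% of uniquely aligned reads, and ambiguous reads 0.621% and 0.358%. The percentage of alignments that were not unique was 60.1 in liver IR and from 41.1 to 46.3 in the other libraries. The part this plays in the classes set with liver IR was not tested.

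Groups came from sample titles. Genes kept by filterByExpr of edgeR 4.0.16 (minimum count 10, by condition; 9932 genes) set TMM scaling over all 6 libraries in R 4.3.3. DESeq2 1.42.0 gave alternative size factors. Ratios, intervals and counts were computed in Python 3.11.15 with SciPy 1.17.1. Log2 ratios used a prior count of 2. With 1 library a group, no test was run. Genes were named by a rule that ranks genes apart by the interval bound nearer to 1, and allows 2 IDs a direction where no symbol is matched. The gene lists prepared by symbol could not be used. The comparison, classes and lists were chosen with earlier results of these data known.

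The script was tested on simulated pairs of the hepatocyte libraries with counting error only. It called 29 of 50 genes changed 2-fold, 40 of 40 changed 4-fold, 49 of 49 changed 8-fold, and 13 of 6913 unchanged genes.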

Additional observations from a re-analysis of the deposited data

Results flagged for a closer look

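Differences of opposite direction in the 2 preparations are listed here. The difference between preparations was not tested, since each group is 1 library. In all, 58 genes were apart and lower in the hepatocyte library labelled IR while higher in liver IR, and 28 were higher in the hepatocyte library labelled IR while lower in liver IR. Among the printed genes, ENSRNOG00000013552 had a hepatocyte log2 ratio of 3.84, ENSRNOG00000028896 of -7.68 and ENSRNOG00000025001 of -5.26, each opposite to its direction in liver.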

How the results depend on the processing

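The 4 printed genes kept their direction and stayed apart in every alternative run for them. DESeq2 size factors gave 676 genes higher and 440 lower, and TMM over the 2 hepatocyte libraries gave the values of the main scaling. Library totals alone gave 757 and 384. Without the most abundant gene in the totals, 1063 were higher and 263 lower (80.2% of genes apart higher, in place of 60.5%). Genes apart numbered 1024 and 732 with no filter, 1003 and 681 with 10 or more reads, 252 and 221 with 200 or more, 73 and 51 at 4-fold, and 197 and 171 with the interval bound past 2-fold. The median log2 ratio of all genes was 0.061 with library totals, 0.21 without the most abundant gene and -0.013 with the IR library thinned. For genes higher in liver IR with 50 reads, the median hepatocyte log2 ratio was -0.26. It was -0.87 with library totals, -0.75 without the most abundant gene and -0.019 over all members. For genes lower in liver IR it was 0.47, with 0.26 for library totals and 0.31 over all members. For genes at least 4-fold higher in liver IR it was -1.95, and -0.23 over all members. The log2 ratio of the summed liver-predominant genes was 0.84, with 0.69 for library totals and 0.61 for a 4-fold class. Fewer or other genes enter under the filters, folds and class rules, and the cause of the other shifts was not tested. The values over all members and the interval bound were added after seeing the data. No paired analysis was possible because each group is 1 library and the labels carry no replicate numbers, and no replicate could be left out.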
